A study of Mus musculus with 4 samples.

Results

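Genes that make, degrade and answer to retinoic acid were examined on 4 microarrays of mouse embryos that overexpressed *Hand2* in the neural crest and of wild-type embryos. The genes were *Aldh1a1*, *Aldh1a2*, *Aldh1a3*, *Cyp26a1*, *Cyp26b1*, *Cyp26c1*, *Crabp1*, *Crabp2*, *Rarb* and *Dhrs3*, and every probe set annotated to exactly 1 of these symbols was taken. This gave 11 of 45037 probe sets, for 9 of the 10 genes. *Aldh1a3* was read by 3 probe sets and each of the other genes by 1, and *Cyp26c1* was not analysed here. The arrays held RNA of wild-type whole bodies at E11.5, of *Hand2 CAT/+; Wnt1-Cre* mutant whole bodies (hereafter Hand2NC) at E11.5, of wild-type heads at E12.5 and of Hand2NC heads at E12.5. All embryos had a mixed C57BL/6J x ICR background. In Hand2NC, the *Hand2* transgene is switched on by Cre under *Wnt1* control, in neural crest cells and the dorsal neural tube. Whether it was also on in other cells was not tested. The RNA of several embryos was pooled before it was labelled, and each condition was 1 array. No p-value was computed for this reason, and no difference has a replicate check.

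Retinoic acid is made from vitamin A (retinol) in 2 oxidation steps. Retinol is first oxidised to retinaldehyde by a reversible reaction, and the Aldh1a enzymes then oxidise retinaldehyde to retinoic acid. Cyp26 enzymes of the cytochrome P450 family degrade retinoic acid, and their patterned expression keeps regions such as the hindbrain, limb tip and jaw primordia at low levels. Inside cells Crabp proteins bind the molecule, and in the nucleus it acts through receptors of the Rar and Rxr families that sit on direct repeats of a short half-site. *Rarb*, *Cyp26a1* and *Dhrs3* are themselves induced by retinoic acid and are commonly used to read its activity. In craniofacial development both too little and too much retinoic acid disturb the neural crest, the face and the eye.

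The repeats through which the receptors act can be seen in the promoters of *Rarb* and *Cyp26a1*. RefSeq (GRCm38.p6) held 11 promoter windows for 8 of the 10 genes, each reaching from 250 bases before to 50 bases after an annotated start. Direct repeats of the half-site AGGTCA, its variant AGTTCA and its further variant GGTTCA were searched on both strands, in any combination and order, with spacings of 2 and 5 bases. The last variant was added after the *Rarb* promoter was seen to hold it. Of 32851 windows of all genes, 20 (0.0609%) held a repeat spaced by 5, and 2 of these were the windows of *Cyp26a1* and *Rarb*. Only the sequences around these repeats are shown, with the half-sites in capitals, 5′ to 3′ on the strand of the gene.
Rarb: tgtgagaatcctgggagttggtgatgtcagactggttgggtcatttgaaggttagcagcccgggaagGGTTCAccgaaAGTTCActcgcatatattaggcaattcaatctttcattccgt
Cyp26a1: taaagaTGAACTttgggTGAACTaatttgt

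The *Rarb* sequence spans the 120 bases before an annotated start, on the minus strand at chr14:16575477-16575596. This start lies inside the *Rarb* gene record (chr14:16430839-17082331), so other transcripts of the gene begin upstream of it. The repeat, of the form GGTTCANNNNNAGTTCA, covers 53 to 37 bases before the start (chr14:16575513-16575529). The *Cyp26a1* sequence is on the plus strand at chr19:37697770-37697799. Its repeat lies 32 to 16 bases before the start used here and inside the gene record, which begins at 37697738. It runs against the direction of the gene, so that the capitals TGAACT are the half-site AGTTCA read on the other strand. The form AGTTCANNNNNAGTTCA was held by 8 of all windows (0.0244%). No repeat spaced by 5 was found in the windows of *Aldh1a1*, *Aldh1a2*, *Cyp26b1*, *Cyp26c1*, *Crabp1* and *Dhrs3*, which says only that these letters are not in these windows. Repeats spaced by 2 were in 0 of the 11 windows and in 0.21% of all windows.

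The deposited MAS5 signals, which are linear brightness values, were scaled to the same trimmed mean of 500 on each array. A signal was compared between arrays only when at least 1 of the 2 arrays reached its own median, which lay between 97.2 and 106 on the 4 arrays. The labels were checked on *Hand2*, whose probe set 1422221_at had signals of 67.1 in wild-type and 314 in Hand2NC at E11.5 and of 33.4 and 706 at E12.5. The brighter *Hand2* probe set 1436041_at had 1214 and 1244 at E11.5 and 592 and 839 at E12.5. The E12.5 Hand2NC pool held almost no signal of Y-linked genes. *Kdm5d* had 677 in wild-type and 8.72 in Hand2NC heads, against 578 and 535 at E11.5, and *Xist* had 8988 and 16187 in the heads. Sex and genotype thus cannot be told apart in the E12.5 pair. The labels give whole body at E11.5 and head at E12.5, while a figure legend of the paper names heads at E11.5 as well. The E11.5 arrays held heart, liver and trunk RNA and the E12.5 arrays far less of it, and the labels were followed. The summed signal of 8 heart muscle genes was 11982 and 12673 at E11.5 and 978 and 1048 at E12.5. In whole bodies and heads a smaller number of cells and less RNA per cell cannot be told apart.

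Among the signals that could be compared, none of the retinoic acid genes passed a 2-fold difference between Hand2NC and wild-type at either stage. The signals of the 11 probe sets on all arrays are drawn first.

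**Figure D1:**
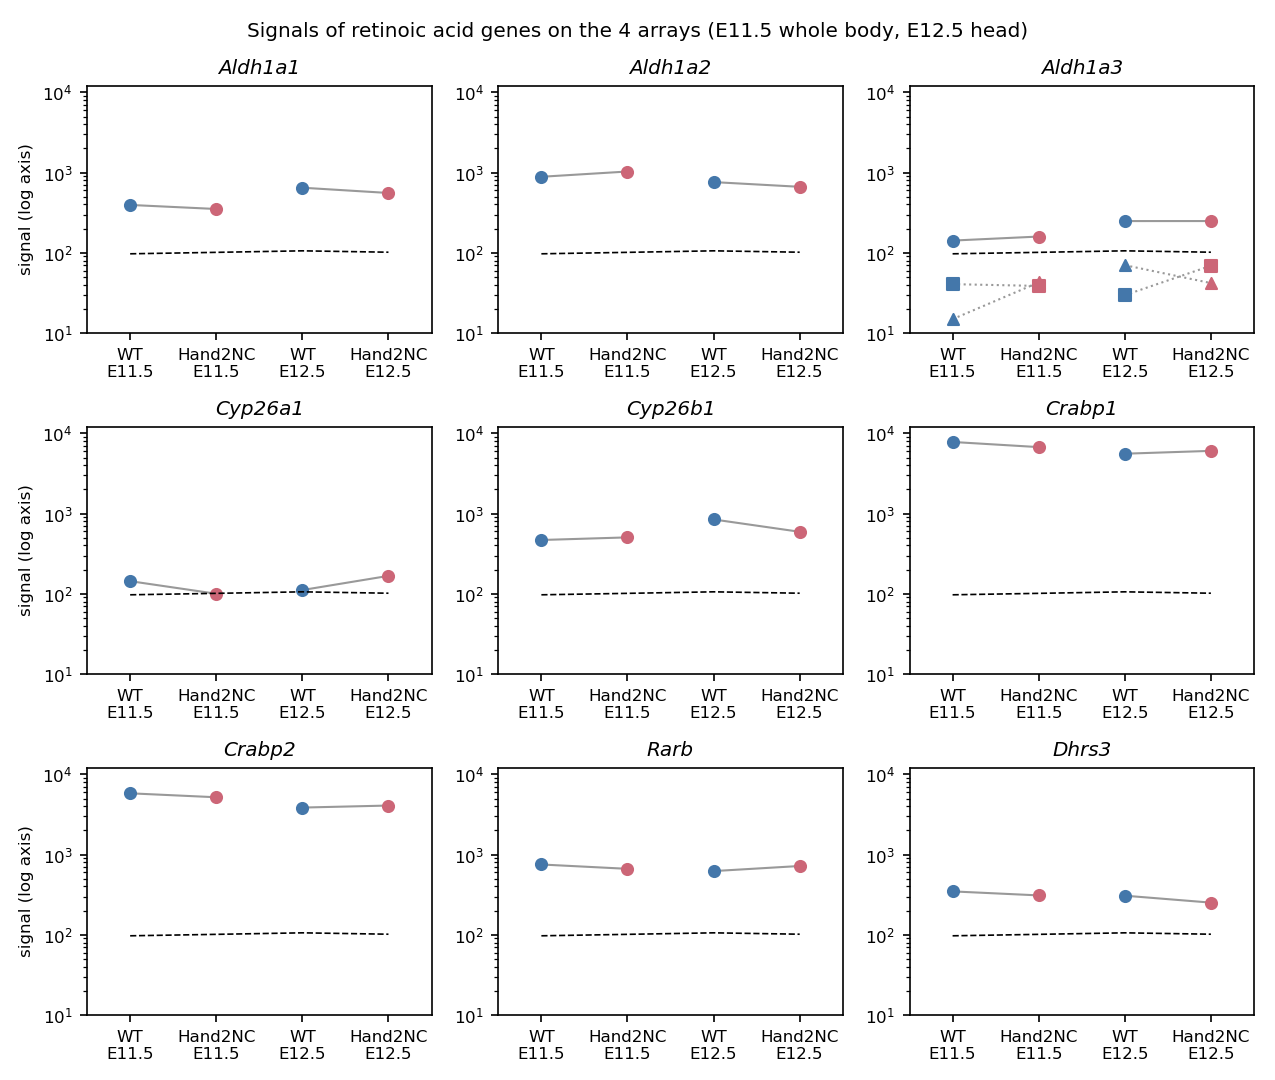
Signals of the 9 genes on the 4 arrays (log axis), with wild-type in blue and Hand2NC in red, and E11.5 whole body on the left and E12.5 head on the right of each panel. Circles are the brightest probe set of a gene, squares and triangles the other 2 probe sets of *Aldh1a3*, grey lines join the genotypes of a stage and the dashed line is the array median. The dim *Aldh1a3* probe sets lie below the median on all 4 arrays, and the *Cyp26a1* signals of 100 to 167 lie next to it.

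*Aldh1a2* makes most of the retinoic acid of the trunk mesoderm, the somites and the heart coverings. Its signal was 886 in wild-type and 1031 in Hand2NC whole bodies, and 761 and 665 in the heads. At E11.5 it was therefore 1.16-fold higher in Hand2NC (log2 difference 0.22) and at E12.5 it was 1.14-fold lower (-0.20). Such differences were read against a local spread, a robust SD of the log2 difference among the 500 probe sets closest to the gene in mean signal, which includes real differences as well as measurement error. The local spread was 0.15 at E11.5 and 0.17 at E12.5 for *Aldh1a2*, so both differences exceeded it only slightly. Centring each array on its median gave -0.14 at E12.5, inside the spread. The E11.5 Hand2NC array also had more signal of trunk *Hox* genes: their summed signal was 3023 in wild-type and 3303 in Hand2NC, their median log2 difference was 0.21, and 4 of 7 were higher and 1 lower past the local spread, where 15.9% of all genes were higher and 17.4% lower. After median centring the Hox median was 0.15, with 2 higher and 2 lower, where 10.1% of all genes were higher and 29.0% lower. The part of this trunk signal in the *Aldh1a2* value was not tested.

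*Aldh1a1*, the enzyme of the dorsal retina and of dopaminergic neurons of the midbrain, had signals of 395 in wild-type and 352 in Hand2NC at E11.5, and of 648 and 557 at E12.5. Hand2NC was the lower array at both stages, by log2 differences of -0.17 and -0.22 against local spreads of 0.21 and 0.17. Within each genotype the signal was higher in the head than in the whole body, as given below with the local spreads.

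*Aldh1a3* is expressed in the ventral retina, the nasal region and the lateral forebrain. Its brightest probe set, 1448789_at, had signals of 142 and 159 in wild-type and Hand2NC at E11.5 and of 249 in both at E12.5. The genotypes were thus level in the heads (log2 difference 0.00) and differed by 0.17 at E11.5, less than the local spread of 0.29. The other probe sets were below the array median everywhere and were not compared. One of them, 1427395_a_at, had signals of 14.9 and 42.7 at E11.5 and 70.1 and 41.9 at E12.5, and the other, 1417642_at, had 40.6 and 38.6 and then 29.6 and 69.0. These dim probe sets disagreed with the bright one in size, and with each other in direction at both stages.

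Genes of retinal differentiation and pigment, measured as a check on the eye, had summed signals of 934 in wild-type and 854 in Hand2NC at E11.5 and 1242 and 1277 at E12.5, for the 7 of 8 genes with a probe set. Of these, 3 were compared at E11.5 and 4 at E12.5, and 0 passed the 2-fold cutoff. Past the local spread, 1 eye gene was lower in Hand2NC at each stage, *Pmel* at E11.5 (-0.26) and *Six6* at E12.5 (-0.42). The lens crystallin gene *Cryaa* was lower past its spread at both stages, by -0.49 and -0.29, as the only lens gene of 3 and of 4 compared. For comparison, 17.4% of all genes were lower past the spread in whole bodies, and 16.3% in heads. Lists of 3 or 4 genes are too short to tell 1 such gene apart from these shares. The part of the eye in the *Aldh1a1* and *Aldh1a3* values was not tested.

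*Cyp26b1* had the difference between genotypes that was largest against its local spread. This enzyme clears retinoic acid from the branchial arches, hindbrain and limb buds, and its loss in mice affects the palate and skull. The signal was 468 in wild-type and 505 in Hand2NC whole bodies, a log2 difference of 0.11 at a local spread of 0.18. In the heads it was 845 in wild-type and 593 in Hand2NC, which is 1.43-fold lower in Hand2NC with a log2 difference of -0.51 at a local spread of 0.17. The wild-type head stood above the other 3 arrays. Of the 9 probe sets compared at E12.5, this was the 1 that passed 2 local spreads, as 8.49% of all probe sets compared did. At E11.5 it was 0 of 9, and 7.93% of all. The wild-type pool with the high value was also the one with Y-linked signal, and the part of this in the result was not tested.

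*Cyp26a1*, which carries the repeat shown above and whose transcription retinoic acid induces, had low signals close to the array median. They were 144 in wild-type and 100.1 in Hand2NC at E11.5, and 111 in wild-type and 167 in Hand2NC at E12.5. The log2 difference was -0.52 at E11.5 and 0.59 at E12.5, with local spreads of 0.35 and 0.31. The direction was thus opposite at the 2 stages, by a difference of 1.11 on the log2 scale that was not tested. On the E11.5 Hand2NC array the signal was just below the array median of 101, and on the other 3 arrays it was above the median.

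*Cyp26a1* and *Cyp26b1* encode enzymes of the same reaction and had differences of opposite sign at each stage. At E12.5 *Cyp26a1* was higher and *Cyp26b1* lower in Hand2NC, and at E11.5 *Cyp26a1* was lower and *Cyp26b1* within its local spread. Each rests on 1 probe set, and for *Cyp26a1* the ratio of the difference to its local spread was -1.51 at E11.5 and 1.87 at E12.5.

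*Dhrs3* encodes a reductase that turns retinaldehyde back into retinol and so draws substrate away from the Aldh1a enzymes. Its signals were 348 in wild-type and 310 in Hand2NC at E11.5 and 307 and 252 at E12.5. Hand2NC was lower at both stages, by log2 differences of -0.17 and -0.29, against local spreads of 0.22 and 0.25.

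*Crabp1* and *Crabp2* encode the 2 cellular binding proteins. *Crabp1* is a marker of migrating neural crest and of face mesenchyme, and *Crabp2* passes retinoic acid to the nuclear receptors. *Crabp1* had signals of 7812 in wild-type and 6737 in Hand2NC at E11.5 and of 5575 and 6048 at E12.5. *Crabp2* had 5803 and 5181 at E11.5 and 3854 and 4084 at E12.5. For both genes the log2 difference was below 0 at E11.5, at -0.21 and -0.16, and above 0 at E12.5, at 0.12 and 0.08. Local spreads at these bright signals were small, at 0.12 and 0.11 at E11.5 and 0.09 and 0.10 at E12.5, so that the difference of *Crabp2* at E12.5 was within its spread. The wild-type whole body had the highest and the wild-type head the lowest signal of both genes, and the Hand2NC arrays lay between them.

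*Rarb*, the receptor gene with the repeat in its promoter, varied least of the 11 probe sets. Its signals were 752 in wild-type and 664 in Hand2NC at E11.5 and 623 and 720 at E12.5, and the highest array was 1.21-fold above the lowest. The log2 difference between genotypes was -0.18 at E11.5 and 0.21 at E12.5, with local spreads of 0.17 and 0.16. *Rarb* and *Cyp26a1* thus had the same order of genotypes, with Hand2NC lower at E11.5 and higher at E12.5. *Crabp1* and *Crabp2* had this order too. It was found for 4 of the 9 probe sets, beside 25% of all probe sets compared at both stages. *Dhrs3*, the other gene commonly used to read retinoic acid activity, was lower in Hand2NC at both stages.

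**Figure D2:**
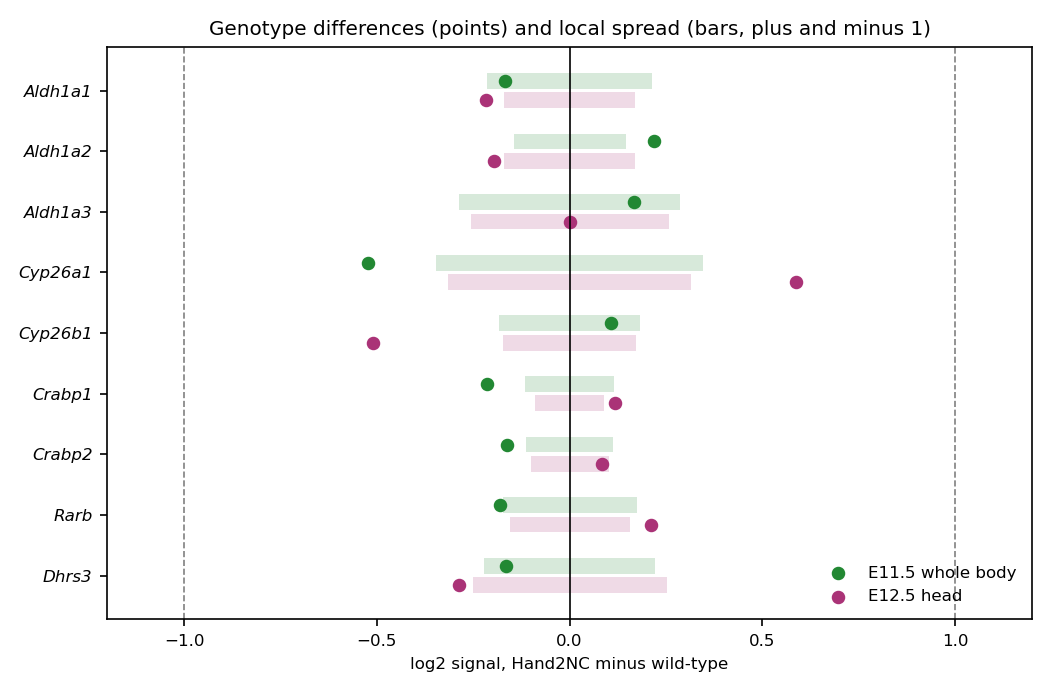
Log2 difference in signal of Hand2NC minus wild-type for the brightest probe set of each gene at E11.5 (green) and E12.5 (purple), with bars that reach from minus 1 to plus 1 local spread and dashed lines at a 2-fold difference. *Cyp26b1* at E12.5 (-0.51) and *Cyp26a1* at both stages (-0.52 and 0.59) lie farthest from 0, and no point reaches the dashed lines.

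Between genotypes, the compared probe sets of the retinoic acid genes differed by less than 2-fold, with a median size somewhat above that of all probe sets. At E11.5, 9 of the 11 probe sets were compared and 0 passed the 2-fold cutoff, where 0.787% of all 23394 probe sets compared did. At E12.5 it was again 0 of 9, where 0.907% of 23370 did. The median size of the log2 difference was 0.17 at E11.5 and 0.21 at E12.5, beside 0.13 at both stages over all probe sets. At E11.5, 1 probe set was above and 4 were below wild-type past the local spread, where 18.8% of all were above and 16.1% below (34.9% in either direction). The gene above was *Aldh1a2* and those below were *Cyp26a1*, *Crabp1*, *Crabp2* and *Rarb*. At E12.5, 3 were higher (*Cyp26a1*, *Crabp1* and *Rarb*) and 4 lower (*Aldh1a1*, *Aldh1a2*, *Cyp26b1* and *Dhrs3*), where 15.5% of all were higher and 18.9% lower (34.5% in either direction). This split depended on the scaling. Centring each array on its median instead, which moved all differences by -0.06 at E11.5 and 0.06 at E12.5, left 6 lower at E11.5, and 4 higher and 1 lower at E12.5. In that scaling, 25.8% of all probe sets were lower at E11.5, and 25.3% were higher and 12.8% lower at E12.5. The gene that remained lower in the heads past its spread was *Cyp26b1*. In the whole bodies *Aldh1a2* remained higher past its spread, at 0.158 with a local spread of 0.145. In that scaling 10.1% of all genes were higher at E11.5.

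Differences of opposite sign at the 2 stages were found for 6 of the 9 probe sets, and for 51.9% of all probe sets compared at both stages. For 4 of them, those of *Aldh1a2*, *Cyp26a1*, *Crabp1* and *Rarb*, the difference exceeded the local spread at both stages, as it did for 6.91% of all. A difference of the same sign beyond the local spread at both stages was found for 0 of the 9, and for 5.86% of all. The 2 stages differ in tissue as well as in age, and no array is shared by these comparisons. With median centring the count was again 4 of 9, with *Crabp2* in place of *Aldh1a2*, and the share of all probe sets was 10.3%.

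Between E12.5 heads and E11.5 whole bodies the stage and the tissue changed together and cannot be told apart. None of the 9 probe sets compared passed a 2-fold difference in both genotypes, where 2.97% of 22994 probe sets did. In wild-type alone and in Hand2NC alone 0 of 9 passed, where 7.11% and 4.91% of all did. Past the local spread, 5 of 9 differed in wild-type (36.1% of all) and 5 of 9 in Hand2NC (34.9% of all), and past 2 local spreads 3 of 9 in wild-type (10.2%) and 0 of 9 in Hand2NC (9.38%). The 3 in wild-type were *Cyp26b1*, which was higher in the head, and *Crabp1* and *Crabp2*, which were lower.

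*Aldh1a1* and *Aldh1a3* had higher signals in the heads beyond the local spread in both genotypes. *Aldh1a1* had log2 differences of 0.71 in wild-type and 0.66 in Hand2NC (local spreads 0.37 and 0.34), and *Aldh1a3* had 0.81 and 0.64 (0.49 and 0.42). *Crabp2* was lower in the heads in both, at -0.59 and -0.34 (0.28 and 0.24). These 3 of 9 compare with 20% of all probe sets that passed the local spread the same way in both genotypes.

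The other genes did not pass the local spread the same way in both genotypes. *Cyp26b1* was 0.85 higher on the log2 scale in the wild-type head (local spread 0.37) and 0.23 higher in the Hand2NC head (0.35). *Cyp26a1* was at -0.37 in wild-type (0.55) and at 0.74 in Hand2NC (0.50). *Aldh1a2*, the enzyme of the trunk, was at -0.22 in wild-type (0.34) and at -0.63 in Hand2NC (0.32). Median centring shifted the wild-type head against the whole body by -0.12 on the log2 scale, and no gene changed sign by it in either genotype. *Crabp1* was at -0.49 in wild-type (0.24) and at -0.16 in Hand2NC (0.21). *Rarb* and *Dhrs3* were within their local spread in both genotypes, with *Rarb* at -0.27 and 0.12 and *Dhrs3* at -0.18 and -0.30.

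Markers of liver, trunk, heart and forebrain differed strongly in this comparison. Of 7 liver genes with a probe set, 6 were at least 2-fold lower in the heads of both genotypes, of 7 trunk *Hox* genes 7 were, and of 8 heart muscle genes 7 were. Of all genes compared, 1.72% were lower and 1.91% higher in this way. Of 7 forebrain genes 4 were at least 2-fold higher in both genotypes, with a median log2 difference of 1.05 in wild-type and 1.12 in Hand2NC. The eye and pigment genes had medians of 0.25 in wild-type and 0.56 in Hand2NC over 4 genes compared. Of these 1 and 0 passed 2-fold, where 7.06% and 5.11% of all genes did. How far these tissues set the values of the retinoic acid genes was not tested.

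**Figure D3:**
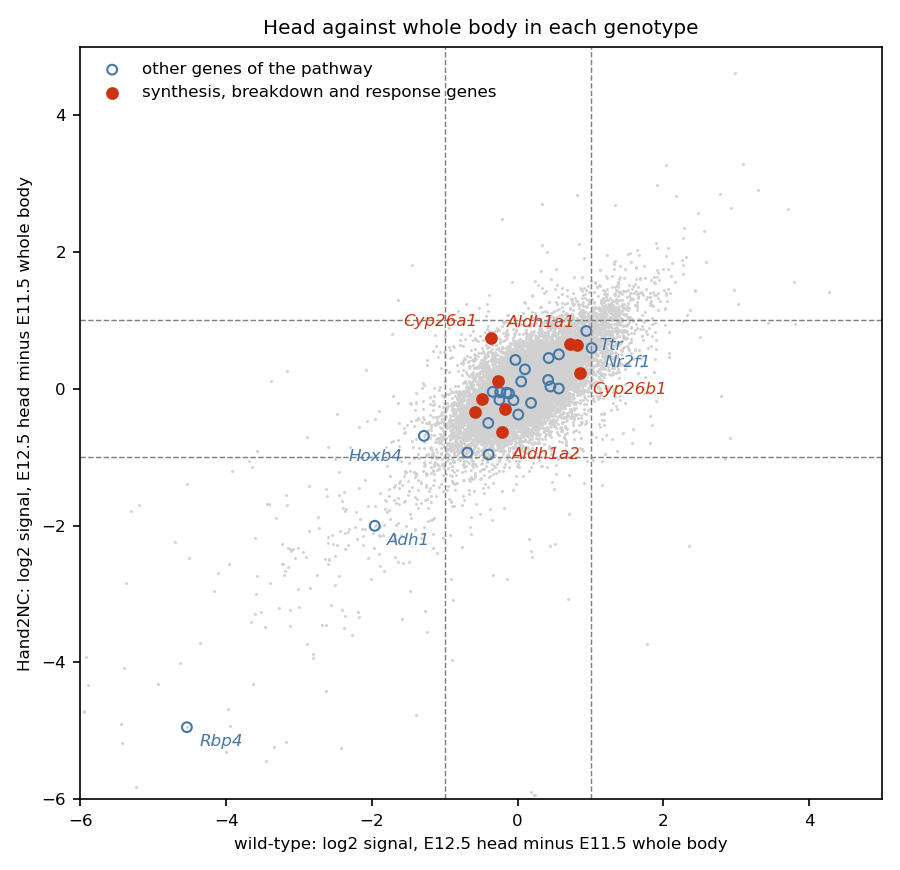
Log2 difference in signal of E12.5 head minus E11.5 whole body in wild-type (horizontal axis) and Hand2NC (vertical axis), with 22994 probe sets compared in both genotypes in grey (50 of them outside the axes), the 9 probe sets of the retinoic acid genes in red and 24 other genes of the pathway in blue. Dashed lines mark a 2-fold difference, which the red points do not pass on either axis, while *Rbp4* (-4.54 and -4.95) lies far below it.

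The rest of the retinoid pathway was described by a list of 39 genes, of which 32 had a probe set with a single symbol and the others were not analysed here. Each gene was taken by its brightest probe set. Between genotypes, 0 of 24 genes compared at E11.5 and 0 of 21 at E12.5 passed the 2-fold cutoff, where 0.446% and 0.398% of all genes did. Past the local spread, 6 were higher and 3 lower at E11.5, beside 15.9% of all genes higher and 17.4% lower (33.3% together). At E12.5, 4 were higher and 5 lower, beside 16.2% and 16.3% (32.5% together).

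Of 5 receptor genes 4 were compared, since *Rara* was below the array median on all arrays. *Rarg*, the receptor of cartilage and skin precursors, had a signal of 381 in wild-type and 504 in Hand2NC heads, a log2 difference of 0.40 at a local spread of 0.20. A second, dim *Rarg* probe set had -0.28, and the mean of both was 0.06. At E11.5 *Rarg* had -0.05, the lowest of the 4 receptors, and *Rxrg* 0.18, the highest, and both were within their local spreads. At E12.5 *Rxrg* had -0.21, and *Rxra* and *Rxrb*, partners of many nuclear receptors, had 0.05 and 0.03. The receptor list had a median of 0.00 at E11.5 and 0.04 at E12.5, and that of all genes was -0.01 and 0.00.

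Of 12 genes of retinol uptake, storage and oxidation with a probe set, 8 were compared at E11.5 and 5 at E12.5. *Stra6*, which encodes the retinol uptake receptor of the eye, had signals of 125 in wild-type and 170 in Hand2NC at E11.5, a log2 difference of 0.45 at a local spread of 0.33, and was below the array median in the heads. *Rdh10*, the enzyme of the first oxidation step, had the highest difference at E12.5, with signals of 855 in wild-type and 1008 in Hand2NC (log2 difference 0.24, local spread 0.15). Its second probe set also had 0.24. *Ttr*, which encodes a carrier of retinol-binding protein and thyroid hormone made by liver and choroid plexus, was the lowest at both stages.

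The brightest *Ttr* probe set had 9223 in wild-type and 7901 in Hand2NC whole bodies, and 17721 and 14209 in the heads. The log2 difference was -0.22 at E11.5 and -0.32 at E12.5, with local spreads of 0.12 and 0.06. All 4 probe sets of *Ttr* were lower in Hand2NC at both stages, between -0.22 and -0.41 at E11.5 and between -0.28 and -0.32 at E12.5. Of the 7 liver genes compared in whole bodies, *Ttr* among them, 6 had differences below 0, and *Ttr* was the 1 past the local spread. *Alb* had signals of 9010 in wild-type and 8530 in Hand2NC whole bodies, and *Afp*, the gene above 0, had 17146 and 18323. After median centring 4 of the 7 were lower past the spread, where 29.0% of all genes were. Before this centring, 6270 of all 11886 genes compared were below 0, and 17.4% were lower past the spread.

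Of 4 genes for receptor cofactors, *Ncoa2*, a coactivator gene, had the highest difference at E11.5, at 0.35 with a local spread of 0.13. Its 4 probe sets disagreed. Their mean was -0.74 with a dim probe set that did not pass the filter (signals of 38.4 and 3.79, log2 difference -3.34) and 0.13 over the 3 that did. *Nrip1*, which encodes a corepressor, had the lowest, at -0.13. At E12.5 *Ncoa2* had 0.06 and *Ncoa3* -0.28 (local spreads 0.10 and 0.16). A second, dimmer *Ncoa3* probe set went the other way, at 0.32 with a local spread of 0.34.

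Of 11 genes with a probe set that are known to respond to retinoic acid in embryos, 8 were compared. *Meis2*, a homeobox gene of limb and face, had signals of 2855 in wild-type and 4047 in Hand2NC at E11.5, a log2 difference of 0.50 at a local spread of 0.11. The other *Meis2* probe sets compared had 0.12, 0.40 and 0.16, all of the same sign. At E12.5 all *Meis2* probe sets compared were below 0, the brightest at -0.06 (local spread 0.09). The others were at -0.13, -0.45 and -0.35, with local spreads of 0.10, 0.13 and 0.16. *Foxc1*, a forkhead gene of the mesenchyme around the eye, had the lowest difference at E11.5, at -0.01. At E12.5 *Hoxb4*, a hindbrain and trunk gene, had signals of 94.9 in wild-type and 144 in Hand2NC heads. The log2 difference was 0.60 at a local spread of 0.38. The wild-type signal lay below its array median of 106. The other *Hoxb4* probe set had 0.11 and was below the median in both heads. *Nr2f1*, an orphan receptor gene of the neural crest and brain, had the lowest difference at E12.5, at -0.20 with a local spread of 0.08. Past the local spread, 4 of the 8 were higher and 0 lower at E11.5, and 2 were higher and 3 lower at E12.5, beside the shares of all genes given above. After median centring these were 3 and 0 at E11.5 and 2 and 2 at E12.5. In that scaling 10.1% of all genes were higher and 29.0% lower at E11.5, and 27.6% higher and 10.3% lower at E12.5. Before this centring the list medians were 0.10 and -0.04, and the trunk *Hox* genes had a median of 0.21 at E11.5, whose part in these values was not tested.

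**Figure D4:**
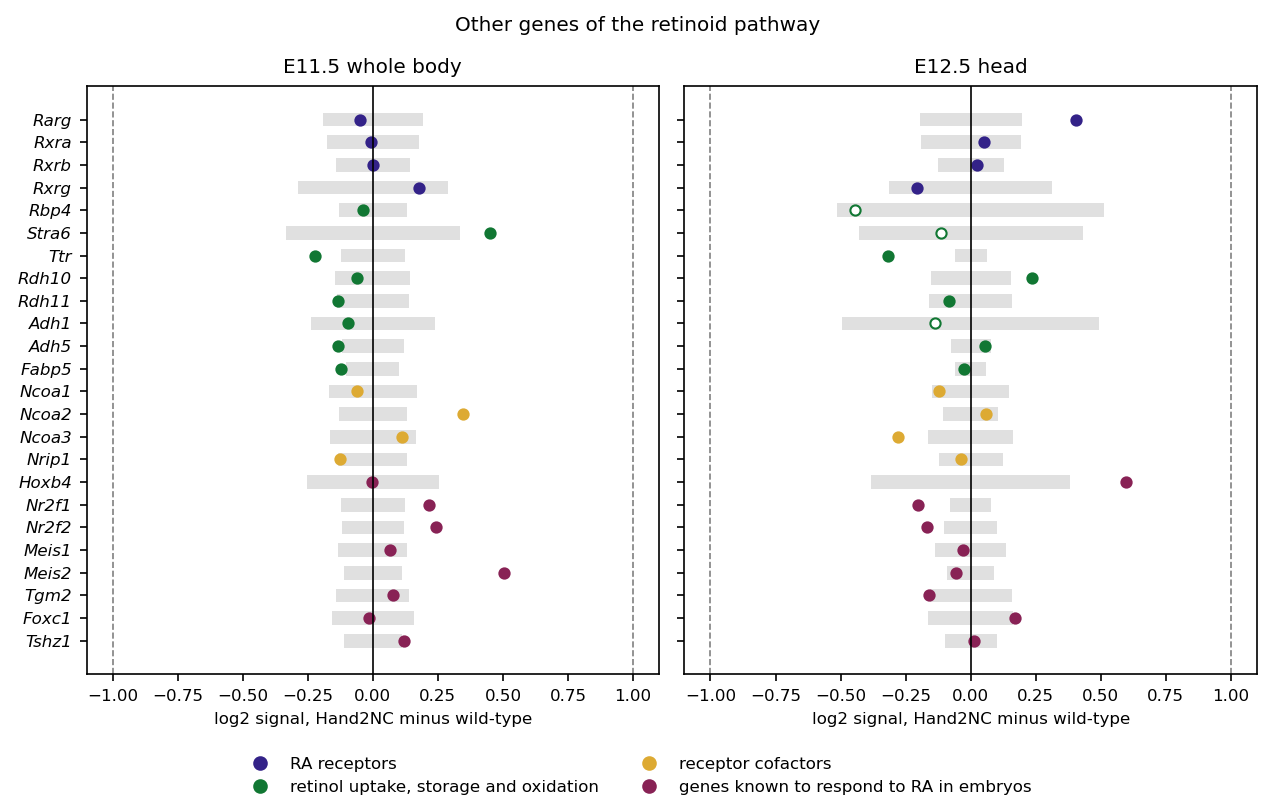
Log2 difference in signal of Hand2NC minus wild-type for 24 other genes of the pathway at E11.5 (left) and E12.5 (right), 1 point per gene at its brightest probe set, coloured by role. Open points are below the array median on both arrays of the stage, grey bars reach from minus 1 to plus 1 local spread and dashed lines mark a 2-fold difference, which none of the points reaches.

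Between heads and whole bodies, *Rbp4* and *Adh1* were lower in the heads by far. *Rbp4*, which encodes the retinol carrier of blood, had signals of 1713 and 1670 in wild-type and Hand2NC whole bodies and of 73.7 and 54.1 in the heads. The log2 difference was -4.54 in wild-type and -4.95 in Hand2NC. The head signals lay below the array median, and with such signals raised to the median the differences were -4.02 and -4.04. *Adh1*, a retinol-oxidising dehydrogenase of liver and kidney, had 281 and 263 in whole bodies and 72.1 and 65.5 in the heads, which was 3.89-fold lower in wild-type and 4.01-fold lower in Hand2NC. With dim signals raised the log2 differences were -1.41 and -1.37. These were the 2 of 24 pathway genes that passed the 2-fold cutoff in both genotypes, where 3.63% of all genes did. The liver markers fell with them, *Alb* from 9010 to 29.1 in wild-type. *Ttr* was higher in the heads instead, at 0.94 and 0.85, and *Nr2f1* was at 1.02 in wild-type and 0.60 in Hand2NC. *Hoxb4* was at -1.29 and -0.69, and the lowest of its list in Hand2NC was *Tgm2*, a transglutaminase gene, at -0.93. Among the receptors *Rxrb* was the highest in the heads of both genotypes, at 0.43 and 0.45, with *Rarg* lowest in wild-type at -0.03 and *Rxrg* in Hand2NC at -0.38. Among the cofactors *Ncoa1* was highest, at 0.57 and 0.50, with *Nrip1* lowest in wild-type at -0.25 and *Ncoa3* in Hand2NC at -0.21.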

How the data were processed

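RNA was extracted from wild-type and Hand2NC embryos, pooled per genotype and stage, and hybridised by the authors to GeneChip Mouse Genome arrays, 1 per condition. The files deposited by the authors give linear MAS5 intensity (version not given in the sources used here), as 1 signal for each of 45101 probe sets and no detection calls. Here 64 control probe sets were left out, signals were brought to a 2% trimmed mean of 500 per array and put on the log2 scale. The number of arrays limits the precision. Names of probe sets came from the annotation of the platform (34945 have 1 symbol, 932 several, 9160 none), checked through gene identifiers against RefSeq, where 34741 matched and 0 symbols changed. Genes with several probe sets are represented by the one with the brightest mean log2 signal. Pathway genes to name were those past 2-fold and otherwise the highest and lowest of each list in each comparison, with up to 2 genes of a tissue list. The counts past the local spread and of opposite signs, and both after median centring, were added after the data were seen. The members and lists were chosen with earlier results of these data known. The counting and the local spread were tested on simulated data. The changes planted there were larger than any compared here for the retinoic acid genes, and lay in probe sets brighter than the array median. Recovery of smaller or dimmer differences was not tested. Alternatives were other scalings, other filters, dim signals raised to the array median, other probe sets and each genotype alone. Tables were made in Python 3.11.15 with pandas 2.3.3 and numpy 2.4.6, loess fits with statsmodels 0.14.6, trimmed means with scipy 1.17.1 and plots with matplotlib 3.10.9.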

Additional observations from a re-analysis of the deposited data

Results flagged for a closer look

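The difference between Hand2NC and wild-type went one way at E11.5 and the other way at E12.5, by more than the local spread at both stages, for 5 of the 11 probe sets. Of the 9 that passed the filter 4 did so, beside 6.91% of all probe sets compared at both stages. After median centring it was again 4 of 9, beside 10.3% of all. Each stage has 1 array per genotype, and none of these differences between stages was tested. For *Cyp26a1* the log2 difference at E12.5 minus that at E11.5 was 1.11. It was 0.39 for *Rarb*, 0.33 for *Crabp1* and -0.41 for *Aldh1a2*. For the dim *Aldh1a3* probe set 1427395_a_at it was -2.26, with all 4 signals below the array median. The tissue was the whole body at E11.5 and the head at E12.5, and the E12.5 Hand2NC pool had almost no Y-linked signal.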

How the results depend on the processing

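No paired analysis was possible because each condition has 1 array and the labels carry no replicate numbers, and for the same reason no array could be left out of a group. The count of probe sets of the retinoic acid genes past 2-fold was 0 in each comparison under every alternative run, except that without a filter it was 1 at E11.5 and 1 at E12.5, both dim *Aldh1a3* probe sets. Counts over all probe sets, 184 at E11.5, 212 at E12.5 and 682 for heads against whole bodies, moved most with the filter: they were 7547, 7687 and 2830 without one, 31, 45 and 338 with both arrays at or above their median, and 9, 25 and 263 with a filter at the 75th percentile. Raising dim signals to the array median gave 42 at E11.5 and 68 at E12.5. None of the 36 values of the 9 genes changed sign with another scaling or with dim signals raised, and 1 moved by more than its local spread, *Aldh1a3* at E11.5, to 0.54 as the mean over its probe sets. *Ncoa2* at E11.5 turned to -0.74 as the mean over its 4 probe sets, 1 of them dim at -3.34, and had 0.13 over the 3 that passed the filter, and *Meis2* at E11.5 had 0.12 without probe sets that may bind several transcripts. The causes were not tested.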
